A study of Sus scrofa with 14 samples.

Results

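The RNAs described here are circular RNAs (circRNAs) made from genes of chromatin modifiers in the embryonic pig brain. They were chosen by host gene name alone: a circRNA counted as a member when its line in a deposited table gave 1 host gene whose name began with 1 of 25 name starts (HDAC, KDM, KMT, SMARC, ARID, BRD, BRWD, BPTF, KAT, KANSL, SETD, EHMT, JMJD, NSD, PHF, MLL, NCOR, TET, DNMT, ASXL, EP300, EP400, CREBBP, ASH1L and ATRX), with HDAC2 left out. In the table of forebrain and cortex this rule found 142 of 5585 circRNAs, from 44 host genes, and in the table of 5 brain regions 91 of 3967, from 41. Together they are 165 circRNAs of 48 hosts, 68 of them in both tables. A host was found for 20 of the 25 name starts and none for BPTF, EHMT, JMJD, DNMT and EP400. The values below use the 123 and 86 members, of 4997 and 3776 circRNAs, whose reads per library added up to the total stated in their line.

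Chromatin modifiers change how tightly DNA is packed and which genes can be read. Acetyltransferases and deacetylases add and remove acetyl groups on histones, methyltransferases and demethylases do the same with methyl groups, remodelling enzymes move or exchange nucleosomes, and readers bind the marked histones. In the developing cortex these enzymes act while progenitors stop dividing and turn into neurons and glia. A circRNA arises when the end of an exon is spliced back to the start of the same or an earlier exon, so that a host gene can give linear mRNAs and closed loops.

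Total RNA above 200 nt, depleted of ribosomal RNA, had been sequenced from dissected fetal pig brain. One series followed the forebrain on embryonic day 23 (E23) and then the cortex on 5 later days (E42, E60, E80, E100, E115), and the other set E115 against E60 in hippocampus, cerebellum, brain stem and basal ganglia as well as in cortex. All 14 groups had 1 library each. The labels state no treatment, genotype or strain, nor whether different animals were used. Intervals below therefore cover counting error only, and p-values measure the scatter of stages around a line or of regions around a mean. E23 was forebrain and all later stages of that series cortex, so tissue and day cannot be told apart for that step, nor can fewer cells of a type be told from less RNA per cell in such bulk samples.

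Library totals ran from 9.67 M to 58.8 M reads, and circRNA reads per library from 518 in the E60 brain stem to 17336 in the E60 cortex. The lines left out held 19 members of the cortex table and 5 of the regions table, with 210 and 144 library reads. All 19 lines of the cortex table listed 0 reads in the E100 cortex. Among marker genes of the dissected regions, 2 of 9 for cortex, 2 of 7 for cerebellum, 1 of 4 for hippocampus and none for basal ganglia or brain stem were listed in the regions table as hosts with a deposited expression value (FPKM, fragments scaled by transcript length and library size), so the region labels could be checked only in part. In the regions table the FPKM columns went against their labels. Over 1446 hosts in both tables, log2(FPKM + 1) in the column headed hippocampus E115 had a Pearson r of 0.973 with the E115 cortex of the other table, while the column headed cortex E115 had 0.718. At E60 the column headed hippocampus had 0.960 with the E60 cortex, and the column headed cortex had 0.699. PROX1, which marks dentate granule cells of the hippocampus, was at 1.62 (E115) and 1.75 (E60) in those headed hippocampus and at 21.9 and 15.2 in those headed basal ganglia. PAX6, high in the embryonic cerebellum, was highest in the columns headed cerebellum, at 54.5 (E115) and 67.2 (E60). RORA, a marker of Purkinje cells of the cerebellum, was at 61.6 and 25.3 in those columns, and at 81.0 and 19.6 in those headed basal ganglia. Host FPKM of the regions table is therefore not set beside regional circRNA levels here. Of the 68 members in both tables, the 54 that added up in both had identical cortex reads, and 11 of the other 14 had differing ones. Backsplice reads of the other regions could not be compared between tables.

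The members held 2187 of 84090 circRNA reads (2.60%) in the cortex table and 1237 of 42656 (2.90%) in the regions table. They were 2.46% and 2.28% of the circRNAs. Their median was 6 reads in the cortex table, against 5 among all other circRNAs, and 60 of the 123 had at most 5 reads. The distance between the junction ends had a median of 8518 bp, against 9802.5 bp in the others, and lay between 476 and 97765 bp. The reads were unevenly spread, since the 5 most abundant circRNAs had 32.7% of the member reads. A host with a member circRNA gave 2.86 of them on average, against 2.13 for other hosts.

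By role, hosts of acetyltransferase complexes gave most member reads of the cortex table (459 reads, 21.0%), followed by readers and plant homeodomain proteins (350 reads) and remodelling or ARID proteins (324 reads, 14.8%). Partner genes of the MLL methyltransferase (MLLT10 and MLLT3) gave 9.37%, histone methyltransferases 8.23%, deacetylases and corepressors 7.77%, demethylases 5.76% and TET enzymes of DNA demethylation 2.42%. Another 320 reads (14.6%) came from 4 hosts whose names match the rule but whose products are not known as chromatin modifiers. KATNBL1 and KATNAL1 encode katanin proteins, which bind or sever microtubules. MLLT4 encodes afadin of cell junctions, and SETD3 encodes a methyltransferase of actin. They are named as members below and marked as such. SETD3 and MLLT4 were set apart after their values had been seen.

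In the developing cortex, the summed level of the member circRNAs was highest at E42 and E60. Levels are reads per M library reads (RPM) with 95% exact Poisson intervals. The sum was 7.34 RPM in the E23 forebrain (6.67 to 8.07), 19.9 at E42 (18.2 to 21.7), 20.7 at E60 (18.8 to 22.7), 7.44 in the E80 cortex (6.44 to 8.55), 6.51 in the E100 cortex (5.81 to 7.27) and 4.95 in the E115 cortex (4.37 to 5.58). E42 and E60 lay apart from the other 4 libraries, and their own intervals overlapped. The E115 cortex had 0.239 times the level of the E60 cortex (exact conditional interval 0.205 to 0.279), and all other circRNAs had 0.268 times (0.261 to 0.274).

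As a share of circRNA reads they made up 2.59% in the E23 forebrain (95% Clopper-Pearson interval 2.35% to 2.84%), 3.09% at E42 (2.84% to 3.37%), 2.56% at E60 (2.33% to 2.80%), 2.45% in the E80 cortex (2.12% to 2.81%), 2.41% in the E100 cortex (2.15% to 2.68%) and 2.29% in the E115 cortex (2.03% to 2.58%). E42 was the highest, and its interval lay above those of the 4 later stages. These sums include the 4 hosts not known as chromatin modifiers, and the MLLT4 circRNA among them was itself highest at E42. The height of E42 thus rests in part on such a host, and the share of the remaining members by stage is not given here. At E60 the members' level was 1.04 times that at E42 (interval 0.915 to 1.18), and that of the other circRNAs was 1.27 times (1.24 to 1.29).

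**Figure D1:**
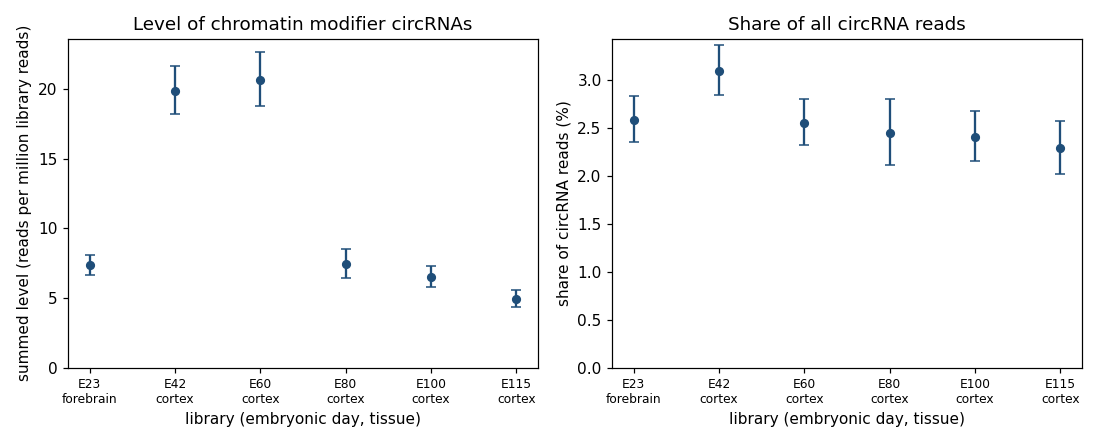
Summed level of the chromatin modifier circRNAs in reads per M library reads (left) and their share of circRNA reads in percent (right) for the 6 libraries of the forebrain and cortex series; points are single libraries and bars 95% exact counting intervals. The level is near 20 RPM at E42 and E60 and at most 7.44 in the other 4 libraries, while the share stays between 2.29% and 3.09%.

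The role groups shared this course to unequal degrees. Acetyltransferase complexes stood at 0.741 RPM in the E115 cortex, against 4.81 in the E60 cortex, 0.154 times the level (0.104 to 0.224), below the interval of the other circRNAs. That ratio rests largely on KANSL1L, with 65 reads in the E60 cortex, and the main KAT6B circRNA, with 25. Readers and plant homeodomain proteins were at 0.704 against 3.60 RPM, 0.196 times (0.129 to 0.292). Demethylases were at 0.222 against 1.17 RPM, 0.190 times (0.0871 to 0.393). Remodelling and ARID proteins were at 1.04 against 3.27 RPM, 0.317 times (0.219 to 0.457), and methyltransferases at 0.537 against 1.59 RPM, 0.338 times (0.199 to 0.572). Every group was lower at E115 than at E60, and in the cortex table the acetyltransferase and remodelling intervals overlapped between 0.219 and 0.224. The ratios depend on which lines are summed. Members of the regions table in the same cortex libraries gave methyltransferases 0.829 (0.388 to 1.88), an interval that includes 1. They gave demethylases 0.0915 (0.0308 to 0.227), acetyltransferase complexes 0.134, readers 0.188 and remodelling or ARID proteins 0.329. The difference between groups was not tested.

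14 member circRNAs had at least 50 reads in the cortex table, and their highest level fell at E60 for 8 of them (57.1%, against 45.1% of 297 other circRNAs of that depth), at E42 for 4, at E23 for 1 and at E115 for 1. These shares are a description. The plot by stage shows 13 of them with counting intervals.

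**Figure D2:**
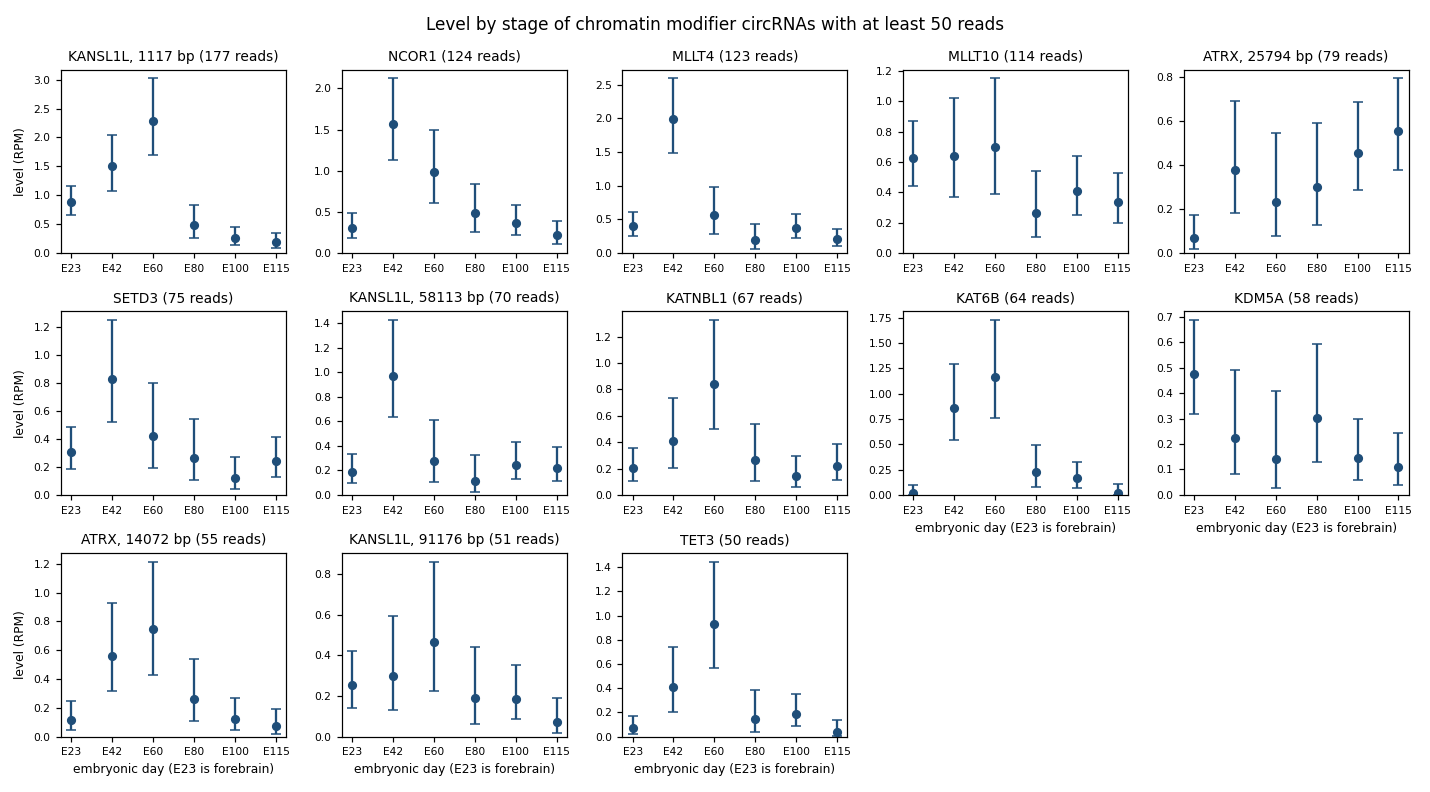
Level in reads per M library reads (RPM) by embryonic day of 13 of the 14 chromatin modifier circRNAs with at least 50 reads; points are single libraries, bars 95% exact Poisson intervals, and the vertical scales differ. Most panels are highest at E42 or E60, KDM5A at E23, and the ATRX circRNA spanning 25794 bp at E115.

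Among acetyltransferase hosts, KANSL1L gave the most reads. It is a paralogue of KANSL1, the scaffold of a complex that acetylates histone H4, and its most abundant circRNA spans 1117 bp (chromosome 15, 124719044–124720160; build Sscrofa10.2, counted from 1). That circRNA had 52, 40, 49, 13, 13 and 10 reads at E23, E42, E60, E80, E100 and E115, or 0.884, 1.5, 2.29, 0.488, 0.268 and 0.185 RPM. It was high up to E60 and low from E80 on. All 4 KANSL1L circRNAs that added up shared their end at 124720160, and they differed in where they started. A start at 124662048 had 11, 26, 6, 3, 12 and 12 reads. A start at 124628985 had 15, 8, 10, 5, 9 and 4 reads. The shortest thus made up 65.8% of what KANSL1L gave at E23, 51.9% at E42, 75.4% at E60 (63.1% to 85.2%), 61.9% at E80, 38.2% at E100, and 10 of 26 reads or 38.5% at E115 (20.2% to 59.4%). A further KANSL1L line, starting at 124693193 with 55 stated reads, did not add up and lists 0 reads at E100. In the regions table the line with this start adds up, and the shares of the shortest in the same cortex libraries differ. There it made up 49 of 83 reads or 59.0% at E60 (47.7% to 69.7%). At E115 it made up 10 of 31 or 32.3% (16.7% to 51.4%), and these intervals overlap.

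KAT6B encodes an acetyltransferase of histone H3 whose loss in humans causes developmental disorders with intellectual disability. Its main circRNA (chromosome 14, 83673622–83685562) had 1, 23, 25, 6, 8 and 1 reads, or 0.0170, 0.862, 1.17, 0.225, 0.165 and 0.0185 RPM over the 6 stages. It was near the floor at both ends of the series, where 3 reads are 0.0510 RPM (E23) and 0.0556 RPM (E115). EP300, an acetyltransferase that acts as a coactivator, gave 5 circRNAs of few reads each. The one at chromosome 5, 4594517–4599234 had all of its 7 reads in the E23 forebrain.

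Among readers and related proteins, ASXL3, a cofactor in the removal of ubiquitin from histone H2A, gave 5 circRNAs that added up, with 39 reads in all.

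The corepressor NCOR1 bridges nuclear receptors and histone deacetylase HDAC3. Its main circRNA (chromosome 12, 62443557–62447784) had 18, 42, 21, 13, 18 and 12 reads, or 0.306, 1.57, 0.981, 0.488, 0.371 and 0.222 RPM. It was highest at E42 and lower at every later stage than at the one before. The 4 other NCOR1 circRNAs had 3 to 20 reads each.

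Remodelling hosts were led by ATRX, which deposits the histone variant H3.3 at repeats and telomeres and is mutated in a human X-linked intellectual disability. Its 6 circRNAs followed different courses. The one spanning 25794 bp (chromosome X, 70638360–70664153) had 4, 10, 5, 8, 22 and 30 reads, or 0.0680, 0.375, 0.234, 0.30, 0.453 and 0.556 RPM, and was the sole member of that depth whose highest level was at E115. The one at 70495253–70509324 had 7, 15, 16, 7, 6 and 4 reads, or 0.119, 0.562, 0.747, 0.263, 0.124 and 0.0741 RPM. The one at 70495253–70498760 had 9, 11, 7, 0, 2 and 0 reads. The circRNA spanning 25794 bp thus supplied 4 of 24 ATRX reads (16.7%) in the E23 forebrain, 22.7% in the E42 cortex and 14.3% in the E60 cortex (4.81% to 30.3%). At E80 it supplied 8 of 16 reads, at E100 66.7% and at E115 68.2% (52.4% to 81.4%). The E60 and E115 intervals did not overlap. The junctions of the late circRNA and of the earlier pair have no end in common.

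Demethylase hosts included KDM5A, which removes methyl groups from lysine 4 of histone H3. Its main circRNA (chromosome 5, 70039585–70085224) had 28, 6, 3, 8, 7 and 6 reads, or 0.476, 0.225, 0.14, 0.30, 0.144 and 0.111 RPM, with its highest value in the E23 forebrain. In the regions table its line does not add up and lists 2 reads in the E60 cortex and 5 in the E115 cortex. The circRNA of KDM1A, which acts on the same residue within the CoREST complex (chromosome 6, 75060283–75062084), had 7, 8, 17, 4, 3 and 2 reads and was highest at E60, at 0.794 RPM.

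The methyltransferase host with most circRNAs was NSD1, which methylates lysine 36 of histone H3. It gave 11 that added up, 5 of them sharing the start at 82153520 on chromosome 2, but only 77 reads in all, with no circRNA above 17 reads. TET3 oxidises methylated cytosine on the way to its removal. Its circRNA (chromosome 3, 72098037–72098680) had 4, 11, 20, 4, 9 and 2 reads and was highest at E60, at 0.934 RPM. The tables disagree on it: for the same cortex libraries the regions table, where its line does not add up, lists 6 reads at E115 and 9 at E60, a ratio of 0.264 in place of 0.0397.

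Of the MLL partners, MLLT10 encodes a cofactor of the histone methyltransferase DOT1L. Its main circRNA (chromosome 10, 58907402–58912493) had 37, 17, 15, 7, 20 and 18 reads, or 0.629, 0.637, 0.701, 0.263, 0.412 and 0.333 RPM. E23, E42 and E60 had nearly the same level. Among the 4 hosts not known as chromatin modifiers, the MLLT4 circRNA (chromosome 1, 2805468–2814551) had 24, 53, 12, 5, 18 and 11 reads, 1.99 RPM at E42 and at most 0.560 elsewhere. The tables disagree on MLLT4 too: its line in the regions table does not add up and lists 14 reads in the E60 cortex and 8 in the E115 cortex. SETD3 (chromosome 7, 128024097–128033636) had 18, 22, 9, 7, 6 and 13 reads, and KATNBL1 (chromosome 7, 86335987–86338985) had 12, 11, 18, 7, 7 and 12.

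A linear change with embryonic day was tested with edgeR's quasi-likelihood test on circRNAs with at least 20 reads, scaled by library totals, with Benjamini-Hochberg adjustment over all circRNAs tested and a threshold of 0.05. Within cortex (E42 to E115, 5 libraries), 24 of the 123 members could be tested and 10 of them fell, with 0 rising. That is 41.7% of the members, against 27.3% called among all 651 circRNAs tested, of which 26.4% fell and 0.922% rose. The median log2 change over the span was -2.58 in the members and -2.16 over all circRNAs, so that most circRNAs had fewer reads per library read at later stages, members or not.

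The members that fell came from 9 hosts of most role groups. The KAT6B circRNA had a log2 change of -4.69 between E42 and E115 (SE 1.10, edgeR adjusted p = 0.00884). The short KANSL1L circRNA changed by -3.77 (SE 0.888, edgeR adjusted p = 0.00917) and that of NCOR1 by -2.75 (SE 0.757, adjusted p = 0.0182). The ATRX circRNAs at 70495253–70498760 and 70495253–70509324 changed by -5.64 (adjusted p = 0.0199) and -3.31 (adjusted p = 0.0326) in the same edgeR test. Others were MLLT4 (-2.95, not known as a chromatin modifier), TET3 (-3.48), KDM1A (-4.07) and the circRNA of MLLT3, a subunit of the elongation complexes that reads acylated histones (chromosome 1, 226117819–226118520; -3.73).

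The long ATRX circRNA had the only slope above 0 among the 24 (0.79, SE 0.851, edgeR adjusted p = 0.458). Scaling by TMM factors, under which the median log2 change of all circRNAs is -0.16, changed these calls: 0 members fell and 1 rose (4.17%, against 5.38% of all circRNAs), this ATRX circRNA, by 2.71 (edgeR adjusted p = 0.0381), and DESeq2 gave it 2.72 (adjusted p = 0.0477). DESeq2 called 0 members as falling, and gave 3 of the 10 (the ATRX circRNA ending at 70498760, KDM1A and MLLT3) no adjusted p. With TMM factors and all lines, tried after the data had been seen, its adjusted p was 0.058 (2.75). The 10 falls are thus falls per library read. They also depend on the late libraries, as did the calls among all circRNAs. Without the E100 cortex or without the E115 cortex 0 members were called, and 0 of all 533 and 542 circRNAs tested. Without the E42 cortex the MLLT4 circRNA had a log2 change of -1.04 and was not called, and without the E60 cortex TET3 had -2.42 and was not called.

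Over all 6 libraries, with the E23 forebrain included, 0 of 25 members were called by edgeR, against 0.374% of all 803 circRNAs (0.125% up and 0.249% down). Unadjusted p was under 0.05 for 2 members, and TMM scaling and DESeq2 each called 1, the same ATRX circRNA (3.28 and 3.42 over the span). Of all 803 circRNAs, 88 had an unadjusted p under 0.05, and TMM scaling and DESeq2 called 41 and 49. Without the E23 forebrain the count was 10.

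Host gene expression was tested in the same series with limma on log2(FPKM + 1). Within cortex 13 of 44 member hosts were called (29.5%), against 22.9% of all 2240 hosts. Of these 12 fell and 1 rose, where 15.1% of all hosts fell and 7.77% rose. KANSL1L fell most, with 87.5, 100.04, 33, 23.5 and 19.2 FPKM from E42 to E115 (log2 change -2.49, SE 0.463, limma adjusted p = 0.00312). KDM1A, at 81.9, 29.2, 16.9, 15.9 and 13.6 FPKM, changed by -2.30 (limma adjusted p = 0.00557). KAT6B, at 51.9, 49.0, 19.3, 17.4 and 11.7 FPKM, changed by -2.19 (limma adjusted p = 0.00364). Each of these 3 was lowest at E115.

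Other hosts that fell were MLLT4, MLLT3, KATNBL1, PHF8 (a demethylase with a plant homeodomain finger), KDM5A, SMARCB1 and SMARCA4 (a core subunit and an ATPase of the BAF remodelling complex) and the remodeller SMARCAD1, with log2 changes from -2.26 to -1.45. KAT2B, an acetyltransferase of the SAGA complex, rose, at 9.24, 5.83, 14.3, 28.6 and 22.9 FPKM from E42 to E115 (log2 change 1.82, SE 0.489, limma adjusted p = 0.0189). Its only circRNA had 2 reads, both at E42. Single libraries carried part of these calls: 8 member hosts were called without the E42 cortex, 21 without E60, 8 without E100 and 7 without E115. Among all hosts, 363 of 2226, 765 of 2242, 337 of 2239 and 228 of 2240 were called in these fits. Among the hosts with values above, KDM1A was not called without E42 (-0.97) nor KAT2B without E100 (1.53). Over 6 libraries 8 of 44 hosts fell and 0 rose, where 24.6% of all hosts were called (14.7% down and 9.88% up): KANSL1L, KDM5A, KDM1A, PHF8, KANSL1, SMARCAD1, ARID2 (a subunit of the PBAF complex) and SMARCB1. That count was 13 without the E23 forebrain, 3 without the E80 cortex and 1 without the E100 or the E115 cortex. In the same order, 512 of 2240, 367 of 2245, 232 of 2248 and 201 of 2246 of all hosts were called. FLT1, a receptor of endothelial cells and the only 1 of 8 markers of other cell types listed as a host, had 3.26, 3.69, 1.25, 7.81, 15.2 and 14.3 FPKM from E23 to E115, and its part in these results was not tested.

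Of the 10 circRNAs that fell, 9 had a host slope below 0 and 6 had a host that itself fell, among them KANSL1L, KAT6B, KDM1A, MLLT3 and MLLT4. Among all 160 circRNAs that fell and had a host value, 90.6% had a host slope below 0 and 46.9% a host that fell. Over all members tested, 23 of 24 had a host slope below 0 and 7 of the 14 not called had a host that fell. Some of the 24 share a host, whose slope is then counted more than once. Over all 594 circRNAs tested with a host value, 73.4% had a host slope below 0 and 28.1% a host that fell. The signs of the circRNA slopes rest on the scaling by library totals: 8 of the 24 were above 0 with TMM factors and 8 with DESeq2. Of all 651 circRNAs, 301 and 304 were above 0 with these. TET3 was the exception in sign, with a circRNA change of -3.48 and a host change of 0.81 (SE 0.462, limma adjusted p = 0.215). The ATRX host had 51.0, 31.6, 32.9, 34.1 and 30.9 FPKM (log2 change -0.51, limma adjusted p = 0.392), a value its circRNAs of -5.64, -3.31 and 0.79 share. Both longer KANSL1L circRNAs were not called although their host fell. The scales differ, since FPKM is set against mapped fragments and a pseudocount of 1 holds in low values, and the difference between circRNA and host was not tested.

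**Figure D3:**
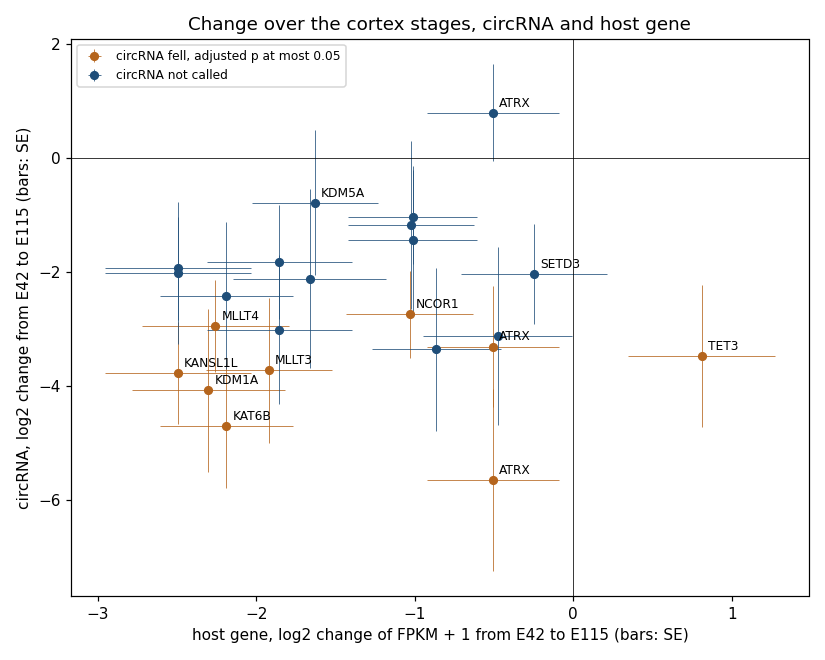
Log2 change over the cortex stages E42 to E115 of 23 of the 24 tested chromatin modifier circRNAs (vertical axis) against that of their host gene's FPKM + 1 (horizontal axis); each point is a circRNA, bars are standard errors, and orange points passed an edgeR adjusted p of 0.05. All points but the long ATRX circRNA lie below 0 on the vertical axis, and TET3 is the only host to the right of 0.

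Across brain regions, the members' level at E115 against E60 went in different directions. In cortex it was 4.35 RPM at E115 (3.81 to 4.95), against 18.2 at E60 (16.4 to 20.1). In the brain stem it was 4.33 (3.69 to 5.05) against 0.908 (0.469 to 1.59), and in the cerebellum 10.8 (9.20 to 12.5) against 5.64 (4.28 to 7.29). The hippocampus had 3.76 (2.72 to 5.06) against 2.70 (2.11 to 3.40) and the basal ganglia 4.86 (3.57 to 6.46) against 4.69 (3.47 to 6.20). The intervals were apart in cortex, brain stem and cerebellum and overlapped in hippocampus and basal ganglia.

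The ratio of E115 over E60 was 0.240 in cortex (0.203 to 0.282), 4.77 in the brain stem (2.66 to 9.42), 1.91 in the cerebellum (1.41 to 2.62), 1.39 in the hippocampus (0.932 to 2.06) and 1.04 in the basal ganglia (0.679 to 1.58). The other circRNAs had ratios of 0.217, 3.36, 2.57, 2.07 and 0.678 in these regions, with the basal ganglia below 1 where the members were at 1.04. The share of the members in circRNA reads was 2.49% at E115 against 3.66% at E60 in the hippocampus and 2.79% against 3.72% in the cerebellum, while it was 3.87% against 2.57% in the basal ganglia, 3.26% against 2.32% in the brain stem and 2.92% against 2.65% in cortex. All 5 pairs of share intervals overlapped. With all lines the brain stem shares were 3.39% at E115 and 3.47% at E60, so the direction there turned. With all lines the intervals no longer overlapped in the cerebellum, at 2.74% (2.35% to 3.16%) against 4.51% (3.61% to 5.56%), or in the hippocampus, at 2.45% (1.85% to 3.17%) against 3.95% (3.19% to 4.84%). The E60 brain stem rests on 12 member reads.

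**Figure D4:**
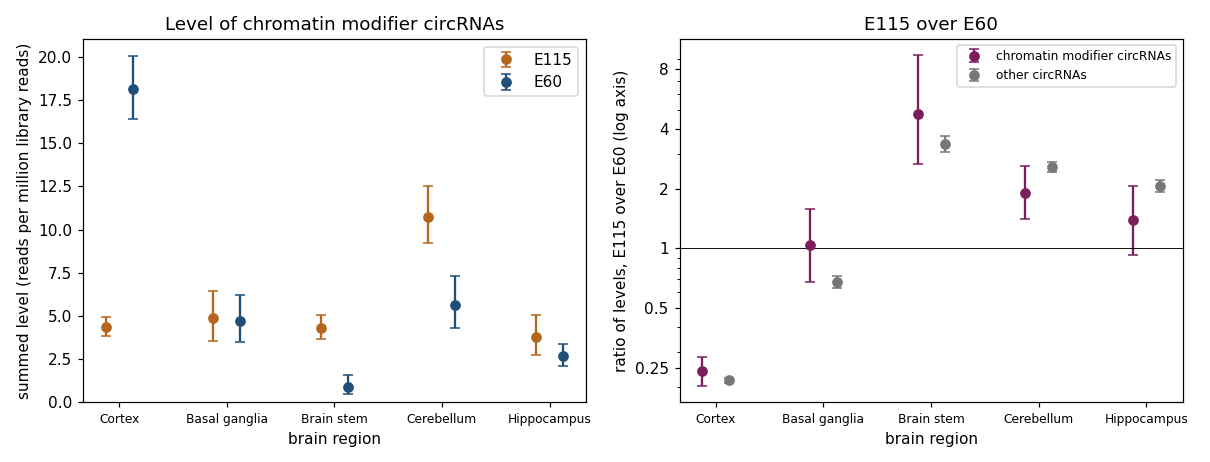
Left: summed level of the chromatin modifier circRNAs in reads per M library reads at E115 and E60 in 5 brain regions. Right: ratio of the level at E115 over E60 on a log axis, for these circRNAs and for all others; bars are 95% exact counting intervals and each point rests on 1 library per region and day. The ratio is below 1 in cortex (0.240) and above 1 in brain stem (4.77) and cerebellum (1.91).

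The 5 member lines that did not add up bear on the region ratios. The TET3 circRNA lists 3, 1 and 0 reads at E115 and 10, 18 and 13 at E60 in brain stem, cerebellum and hippocampus, with 61 of its 67 stated reads shown. In the hippocampus 2 of these lines go the other way, MLLT4 with 6 reads at E115 against 1 at E60 and KDM5A with 6 against 3. MLLT4 also lists 9 against 6 in the brain stem. With all lines included, the ratio is 2.27 in the brain stem (1.52 to 3.51) and 1.40 in the cerebellum (1.07 to 1.84), and 1.44 in the hippocampus (1.01 to 2.04). The other circRNAs then have 2.32 in the brain stem, 2.35 in the cerebellum and 2.36 in the hippocampus, against 2.27, 1.40 and 1.44 in the members.

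6 member circRNAs had at least 50 reads over the regions. MLLT10 was higher at E115 outside cortex. It had 15 reads at E115 against 1 at E60 in the basal ganglia (1.55 against 0.0957 RPM), 22 against 1 in the brain stem (0.584 against 0.0757 RPM), 23 against 5 in the cerebellum (1.46 against 0.486 RPM), 11 against 4 in the hippocampus (0.961 against 0.150 RPM) and 18 against 15 in cortex (0.333 against 0.701 RPM). Intervals of the ratio lay above 1 in all 4 regions outside cortex, with the lowest bound at 1.12 in the cerebellum, and ran from 0.227 to 1.01 in cortex. They held the ratio of the other circRNAs in brain stem (3.36), cerebellum (2.57) and hippocampus (2.07). That ratio lay below them in the basal ganglia (0.678 against a lower bound of 2.49) and narrowly in cortex (0.217).

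The short KANSL1L circRNA was concentrated in the E60 cortex, with 10 reads at E115 against 49 at E60 there (0.185 against 2.29 RPM; ratio 0.0809, interval 0.0366 to 0.162). It had 14 against 1 in the brain stem, 6 against 3 in the cerebellum, 2 against 7 in the hippocampus and 0 against 0 in the basal ganglia. The KANSL1L circRNA starting at 124662048 had 15 reads at E115 against 1 at E60 in the cerebellum (ratio 9.82, interval 1.51 to 414). That interval overlaps the one of the short circRNA there (1.31, interval 0.280 to 8.09).

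The long ATRX circRNA had 30 reads at E115 against 5 at E60 in cortex (0.556 against 0.234 RPM; ratio 2.38, interval 0.914 to 7.86) and 11 against 0 in the brain stem. In the E115 brain stem it supplied 11 of the 12 ATRX circRNA reads, and in the E115 cerebellum 5 of 14. NCOR1 had 12 against 21 reads in cortex, with the ratio at 0.227 (0.102 to 0.482), and at most 7 reads in any other library. KATNBL1, not known as a chromatin modifier, had 12 against 18 in cortex, 10 against 0 in the brain stem and 7 against 0 in the cerebellum.

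**Figure D5:**
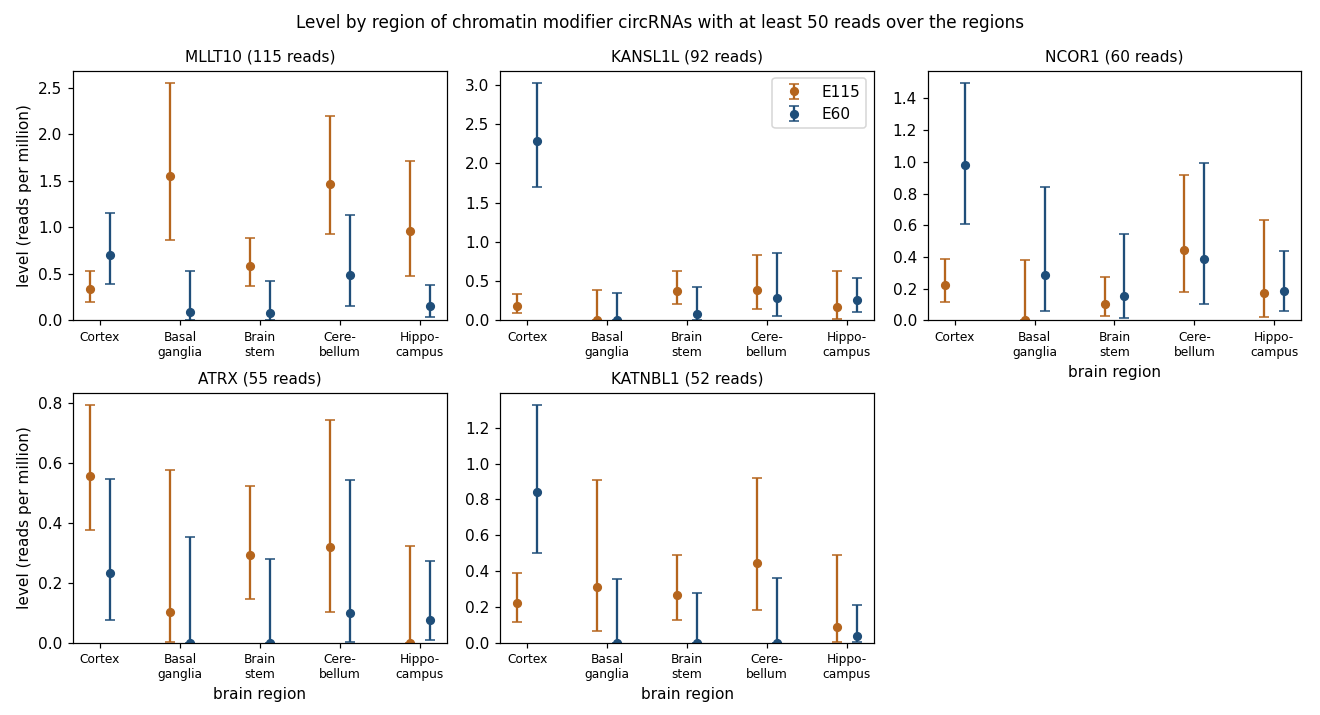
Level in reads per M library reads of 5 of the 6 chromatin modifier circRNAs with at least 50 reads over the regions, at E115 (left point of each pair) and E60 (right point); bars are 95% exact Poisson intervals, each point is 1 library, and the vertical scales differ. MLLT10 is higher at E115 in the 4 regions outside cortex, and KANSL1L, shown for its circRNA of 1117 bp, is high in the E60 cortex alone.

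Of the 16 members with at least 20 reads over the regions, 1 had the higher level at E115 in cortex (6.25%), 13 in the brain stem (81.3%), 12 in the cerebellum, 6 in the hippocampus (37.5%) and 6 in the basal ganglia. The shares among 371 other circRNAs of that depth were 9.16%, 79.2%, 76.5%, 54.2% and 36.7% in these regions. With regions as blocks, edgeR called 0 of the 16 members for a day effect and 0 of 387 circRNAs (0%). Unadjusted p was under 0.05 for 0 members with edgeR, 1 with TMM scaling and 2 with DESeq2. Among all 387 circRNAs it was under 0.05 for 4, 17 and 17. TMM scaling and DESeq2 called 0 members, and 2 and 1 of all 387 circRNAs. The lowest p among members was that of MLLT10 (log2 change 1.92, SE 1.12, edgeR adjusted p = 0.999). The test fits 1 day change for all regions, so a fall in cortex offsets rises elsewhere. Slopes were above 0 for 7 of the 16 members (median -0.23). Without cortex they were above 0 for 7 of the 8 members tested (median 1.24) and 145 of all 165 circRNAs (1.13). Unadjusted edgeR p was then under 0.05 for 2 and 19 of these, and edgeR called 0 and 1. Leaving out basal ganglia, brain stem, cerebellum or hippocampus instead gave 8, 4, 6 and 7 of 16 members above 0, with 0 called. The 4 region terms together called 0 members and 0% of circRNAs with edgeR. Unadjusted edgeR p was under 0.05 for 0 members and for 19 of all 387 circRNAs. For these terms TMM scaling and DESeq2 called 0 members, and 0 and 2 of all 387 circRNAs.

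Host FPKM of the regions table, whose region labels are in doubt as described above, called 2 of 41 member hosts for the day effect with limma, both up, against 11.2% of all 1736 hosts (9.74% up). SETD7, a lysine methyltransferase, had 14.4, 16.7, 12.7, 12.6 and 7.91 FPKM at E115 in the columns headed cortex, basal ganglia, brain stem, cerebellum and (last) hippocampus, against 4.86, 2.62, 1.01, 2.82 and 2.63 at E60 (log2 change 1.92, SE 0.314, limma adjusted p = 0.00138). All its E115 values lay above all its E60 values. KDM7A, a demethylase of lysines 9 and 27 of histone H3, had 15.9, 21.7, 16.5, 28.1 and 12.9 FPKM at E115, against 7.12, 4.05, 3.90, 12.1 and 4.54 at E60 (1.51, SE 0.308, limma adjusted p = 0.00654). Their circRNAs had 3 and 12 reads over the regions.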

How the data were processed

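Whole-number counts of backsplice reads per library were deposited in 2 tables, for the forebrain and cortex series and for the regions. The authors' RPM columns gave the library totals, as reads divided by RPM. Host gene FPKM were deposited in both tables. Other values deposited were genomic lengths and unique reads of each junction. Per the submitters' processing notes, Trim Galore, TopHat2, Cufflinks, Cuffdiff and the build Sscrofa10.2 were used. The name of the circRNA caller is not given in the sources used here. Value columns that matched no sample numbered 0.

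Members and gene lists were chosen with earlier results of these data known. Only lines whose library reads add up to the stated total were used, with all lines as an alternative. No sequence or annotation of that build was used, so exons and introns were not examined. KDM5B and KDM4C, listed by Ensembl ID alone, are not members.

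Tests of counts used edgeR 4.0.16 in R 4.3.3 (quasi-likelihood, at least 20 reads), with a linear term in day, or day with region as block. SE is the size of the log2 change divided by the square root of F. FPKM were tested with limma 3.58.1 on log2(FPKM + 1) for hosts with a mean FPKM of at least 1. Log2 changes of trends are over the whole span. Alternatives were DESeq2 1.42.0 with its own size factors, TMM factors, at least 10 reads, reads summed per host, a pseudocount of 0.1, no FPKM filter, no region block and leaving out 1 library. Intervals are 95%. The tests were run on simulated data with equal numbers of rises and falls. For circRNAs, library totals were the true scale there, so these runs cannot decide between library totals and TMM factors. Their scatter was below that of the regions fit (common dispersion 0.997). Some single-gene results are not reported here, while sums, counts and fits include all members. Otherwise the text names circRNAs with at least 50 reads, those called, hosts called and hosts with at least 5 circRNAs. Other circRNAs and hosts named beside them (an EP300 and a KANSL1L line of fewer reads, and PROX1, PAX6, RORA and FLT1 as markers) were chosen after their values were seen or from a marker list.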

Additional observations from a re-analysis of the deposited data

Results flagged for a closer look

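The members' summed level at E115 over E60 moved in opposite directions between regions: it was 0.240-fold in cortex, 4.77-fold in the brain stem and 1.91-fold in the cerebellum, each with a counting interval that excludes 1. The other circRNAs moved in the same directions, at 0.217, 3.36 and 2.57. The E60 brain stem rests on 12 member reads. With all lines, brain stem and cerebellum were at 2.27 and 1.40, against 2.32 and 2.35 in the other circRNAs. The difference between regions was not tested, since each is a single pair of libraries.

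Lines outside the comparisons, whose library reads do not add up, hold member reads: 210 in the cortex table and 144 in the regions table.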

How the results depend on the processing

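The number of members called within cortex was 10, and it was 1 with TMM factors, 1 with DESeq2, 5 with all lines, 0 with TMM factors and all lines together (chosen after seeing the data), and between 0 and 10 when leaving out 1 library. Among all circRNAs tested, 178 of 651 were called in the main fit. TMM factors gave 47 of 651, DESeq2 46 of 651 and all lines 108 of 701. TMM factors and all lines together gave 26 of 701. Over 6 libraries the member count of 0 was 1 with TMM factors, 1 with DESeq2 and between 0 and 10 when leaving out 1 library (10 without the E23 forebrain). Member hosts called numbered 13 within cortex, between 7 and 21 when leaving out 1 library (21 without E60, 8 without E42 or E100, 7 without E115), and 8 over 6 libraries, between 1 and 13 when leaving out 1 library (13 without E23, 3 without E80, 1 without E100 or E115). The counts among all hosts are given with these fits above and moved as well. With all lines the summed level was 22.4 RPM at E42, 23.7 in the E60 cortex, 2.12 in the E60 brain stem and 8.07 in the E60 cerebellum, and the ratio of E115 over E60 was 0.995 in the basal ganglia (other side of 1), 2.27 in the brain stem and 1.40 in the cerebellum. Of the 24 member slopes within cortex, 7 changed sign with TMM factors and 7 with DESeq2. Among the circRNAs named in the text, none of them called, these were the KANSL1L circRNA starting at 124628985 (0.0268 with TMM factors, 0.0270 with DESeq2 and 0.0546 with TMM factors and all lines), KATNBL1 (0.28, 0.32 and 0.33), MLLT10 (0.94, 0.96 and 0.98) and KDM5A (1.08 with TMM factors and 1.12 with all lines as well). The cause was not tested. Of the other values for single circRNAs and hosts, 259 kept their direction and side of the threshold, 95 lost their call and 8 gained one. No paired analysis was possible because replicate numbers pair no libraries, each group having 1. The day effect over regions already pairs E115 with E60 by region, and without that block it called 0 members as well. Depth limits single circRNAs most: 3 reads are 0.310 RPM in the E115 basal ganglia.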

Other observations

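Chromatin genes outside the name rule gave circRNAs as well. A list of 63 other names, chosen with earlier results known, was found for 21 hosts in the cortex table, with 92 circRNAs and 2536 reads (3.02% of circRNA reads). Within cortex, 6 of its 17 tested circRNAs fell with edgeR, from HDAC2 and MORC3, where 26.4% of all circRNAs tested fell, and the median log2 change was -3.29. Of its 22 host genes with an FPKM value, 1 of them (L3MBTL3) from a line that did not add up, 9 fell within cortex with limma, where 15.1% of all hosts fell, among them EZH2 (the methyltransferase of Polycomb complex 2), HDAC2 and the histone chaperone RBBP4. A pair of demethylase genes listed by Ensembl ID gave further circRNAs of the cortex table: KDM5B had 11 lines that added up with 121 reads, and KDM4C had 2 with 80 reads.

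In the columns of the regions table, the deposited FPKM headed hippocampus follow the cortex of the other table far more closely than those headed cortex do, as given above. Which columns hold which tissue was not settled.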
